A study of Mus musculus with 2 samples.

Results

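Kalrn, Clstn2, Anks1b, Asic2, Ptprn2, Dlgap2, Csmd1, Lsamp, Opcml and Auts2 are 10 very long genes known from neurons, out of 21755 protein-coding genes outside the Y chromosome. They were chosen by name as long genes with many or unequal distal peaks of DNase I cutting in these same data, so that their peak counts describe them and were not tested. DNase-seq maps open chromatin: DNase I cuts accessible DNA most often, and a peak is a place with many cuts. A footprint is a short stretch of open DNA that a bound protein shields from cutting. Some of the footprints that the authors listed lay outside peaks. The data were 2 libraries of hippocampal tissue from B6CASTF1/J mice, first-generation hybrids between laboratory and wild-derived CAST parents, 25 days old, labelled male, with no treatment named in the labels. They form 1 group, biological replicates 1 and 2, under a shared donor entry, so that separate animals are not known and the spread between the libraries may be technical. Tissue holds many cell types, so fewer open cells and less opening per cell cannot be told apart.

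Replicate 1 had 93545 peaks and replicate 2 had 79144, with 223251 and 170016 footprints. The number of cuts behind a peak is unknown. The start of Xist, the RNA that silences an X chromosome in female cells, carried 0 peaks in replicate 1 and 3 peaks, the highest at 1.01, in replicate 2, and the Y chromosome carried 40 and 39 peaks. Where a direction between the libraries is given, replicate 2 is named as the library labelled male replicate 2. All 10 genes lie on autosomes. Promoter peaks in both libraries were present at the neuronal genes Rbfox3 and Snap25, the granule cell gene Prox1, the pyramidal cell genes Wfs1 and Slc17a7, the interneuron gene Gad1, the astrocyte gene Slc1a3 and the oligodendrocyte gene Mbp. The microglial genes Cx3cr1 and Tmem119, the astrocyte gene Aqp4, the oligodendrocyte gene Mog and the liver gene Alb had no promoter peak. Away from the promoter, Cx3cr1 nevertheless held 7 and 20 peaks, and Aqp4 and Mog held 1 each in each library. Tmem119 and Alb held 0. The erythroid gene Hbb-bs had weak promoter peaks in both libraries, at 0.311 and 0.348. Neurod2 and Gad2 had a promoter peak in replicate 1 alone. Peak values throughout are the signal the authors deposited for each peak, on a scale that is not given.

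The longest neuronal genes consist mostly of intron, and their transcripts take a long time to make. Many code for proteins of synapses, adhesion or excitability, and several use internal promoters that give shorter proteins. Their introns hold enhancers, which DNase-seq shows as distal peaks. Within the 10 gene bodies of GENCODE, 3 kinds of peaks were told apart. A shared peak overlapped a peak of the other library by at least 1 bp, and overlapping shared peaks were merged into shared regions. A weak run was a row of at least 5 neighbouring peaks of a single library with gaps of at most 2 kb and no shared peak between them. The remaining single-library peaks are called lone peaks.

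The sequences show what both kinds of place look like. The first 4 are the strongest shared distal regions of the genes in which that region was at most 300 bp long, read on the + strand of mm10 from the GRCm38 reference, with capitals for bases that lay in footprints of both libraries. The Lsamp region (chr16:42172601-42172780) had peak values of 1.96 in replicate 1 and 2.29 in replicate 2, the Asic2 region (chr11:81588741-81588960) 1.60 and 1.84, the Kalrn region (chr16:34242001-34242300) 1.60 and 1.83, and the Anks1b region (chr10:90859741-90860040) 1.62 and 1.42.
Lsamp shared region: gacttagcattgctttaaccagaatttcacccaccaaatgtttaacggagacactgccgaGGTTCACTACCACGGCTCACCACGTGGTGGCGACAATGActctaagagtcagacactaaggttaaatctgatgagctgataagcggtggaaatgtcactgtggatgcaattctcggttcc
Asic2 shared region: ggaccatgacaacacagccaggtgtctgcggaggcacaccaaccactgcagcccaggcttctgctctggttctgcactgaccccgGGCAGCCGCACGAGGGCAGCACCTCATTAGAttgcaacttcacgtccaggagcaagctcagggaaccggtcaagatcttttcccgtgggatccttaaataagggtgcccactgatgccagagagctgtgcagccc
Kalrn shared region: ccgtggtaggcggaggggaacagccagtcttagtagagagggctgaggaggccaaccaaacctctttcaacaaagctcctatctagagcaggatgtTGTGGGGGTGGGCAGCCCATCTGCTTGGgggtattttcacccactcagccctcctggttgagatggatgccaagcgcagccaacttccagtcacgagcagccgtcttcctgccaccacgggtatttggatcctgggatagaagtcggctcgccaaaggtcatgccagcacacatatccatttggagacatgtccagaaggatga
Anks1b shared region: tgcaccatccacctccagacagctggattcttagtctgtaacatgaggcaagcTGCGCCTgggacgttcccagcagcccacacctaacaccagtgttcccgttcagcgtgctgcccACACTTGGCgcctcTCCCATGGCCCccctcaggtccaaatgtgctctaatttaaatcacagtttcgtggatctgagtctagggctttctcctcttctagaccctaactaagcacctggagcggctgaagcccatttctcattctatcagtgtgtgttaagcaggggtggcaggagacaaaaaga
In each of the 4, footprints of the libraries coincided over 27 to 39 bases, the fewest in Anks1b and the most in Lsamp. This was not general: over the 194 shared regions described below, 151 footprints coincided out of 539 in replicate 1 and 476 in replicate 2. The protected stretch of the Kalrn region holds CAGATGG on the minus strand, an E-box that NeuroD factors are known to bind.

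The next 3 are the strongest peaks of at most 300 bp inside the longest weak run of Kalrn and Clstn2 in replicate 1 and of a longest run of Anks1b in the library labelled male replicate 2, again on the + strand of mm10, with capitals for bases in footprints of that library. The Kalrn peak (chr16:34174901-34175200) had a value of 0.516, the Clstn2 peak (chr9:97563315-97563432) 0.579 and the Anks1b peak (chr10:90609381-90609680) 0.541, and the other library had no peak at any of the 3.
Kalrn run peak: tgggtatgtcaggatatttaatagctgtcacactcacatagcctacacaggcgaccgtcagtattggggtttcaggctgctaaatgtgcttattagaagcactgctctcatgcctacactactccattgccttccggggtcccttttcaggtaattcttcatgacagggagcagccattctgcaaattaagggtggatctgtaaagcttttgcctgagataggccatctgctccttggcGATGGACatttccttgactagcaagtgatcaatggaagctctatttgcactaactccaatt
Clstn2 run peak: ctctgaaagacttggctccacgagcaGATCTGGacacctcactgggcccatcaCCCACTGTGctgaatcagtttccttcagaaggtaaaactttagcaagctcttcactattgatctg
Anks1b run peak: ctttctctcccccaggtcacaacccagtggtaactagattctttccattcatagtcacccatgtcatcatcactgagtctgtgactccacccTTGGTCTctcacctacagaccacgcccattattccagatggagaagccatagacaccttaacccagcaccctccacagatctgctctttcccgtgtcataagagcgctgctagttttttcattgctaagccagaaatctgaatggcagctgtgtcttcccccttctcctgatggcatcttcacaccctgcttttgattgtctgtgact
Their footprints covered 7, 16 and 7 bases. The same E-box is in the Kalrn and Anks1b run peaks, and the AP-1 pattern TGANTCA is in that of Clstn2. In each of these run peaks the motif lies outside the footprint bases. They were among the strongest of their runs, since the median value of a run peak in the 10 genes was 0.233 in replicate 1 and 0.155 in replicate 2.

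The 10 bodies, together 11005 kb, held 671 peaks of replicate 1 and 506 of the library labelled male replicate 2. Of these, 217 (32.3%, exact 95% interval 28.8 to 36.0) and 220 (43.5%, 39.1 to 47.9) were shared, against 59.8% and 71.7% of the whole lists. Weak runs held 233 (34.7%) and 151 (29.8%), against 8.27% and 2.98% of the whole lists, and 221 and 135 were lone peaks. The intervals cover counting error only. The unequal peak counts were part of what chose the genes, so these shares describe the choice.

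**Figure D1:**
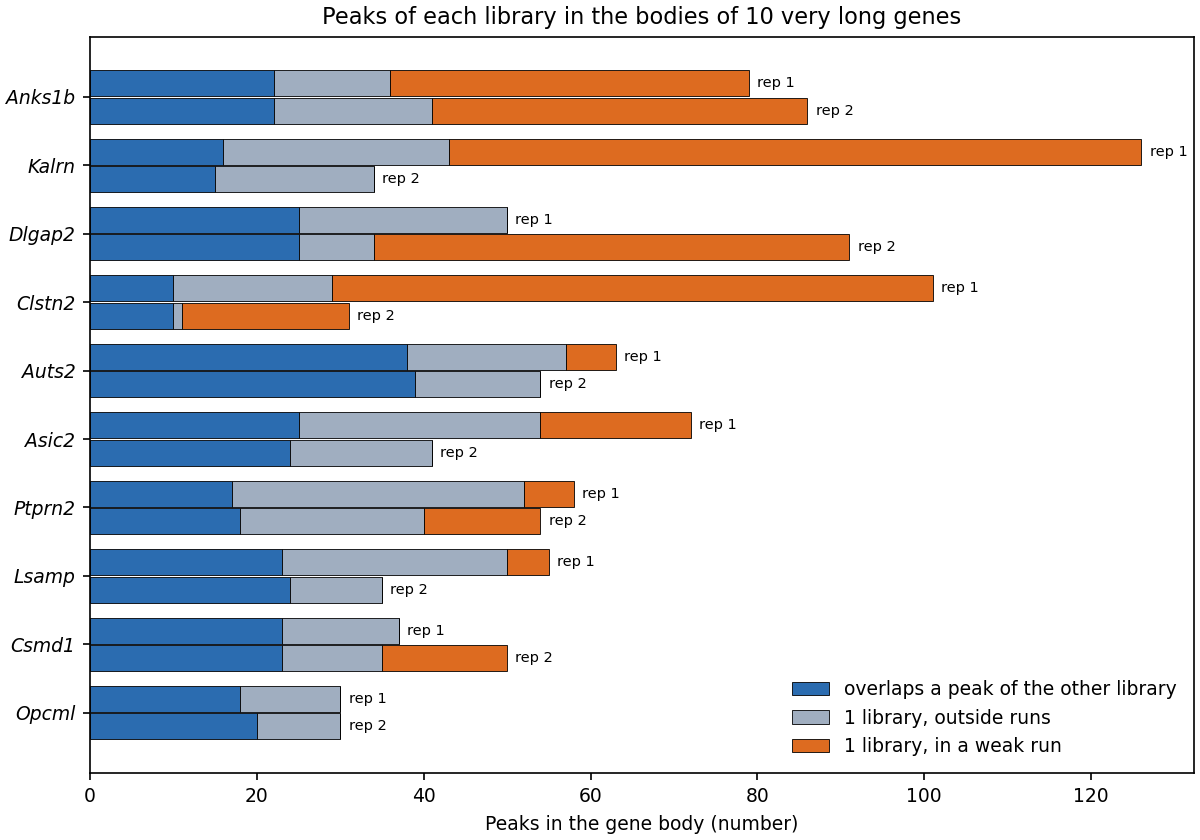
Number of peaks in the body of each gene, by library (upper bar replicate 1, lower bar replicate 2) and by class. The shared counts of both libraries differ by at most 2 in each gene, whereas the run counts reach 83 in Kalrn in replicate 1 and 57 in Dlgap2 in replicate 2.

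The 194 shared regions had similar values in both libraries. Of these regions 28 touched a promoter of their gene and 166 were distal, 174 had their middle in an intron, 15 in a noncoding exon and 5 in a coding exon. The values of the libraries lay within 2-fold in 96.9% of them, against 98.8% of all 50951 shared regions, and the median log2 ratio of replicate 1 over the library labelled male replicate 2 was 0.24, against 0.13. Their median mean value of 0.759 was below the 0.903 of all shared regions, and 66 of the 194 were also peaks of both shorter lists, which the authors deposited beside the main ones and which keep peaks at a stricter FDR. Peaks with their middle before the 5′ end were not counted, which leaves out the strongest 5′ promoter peaks of Kalrn, Anks1b, Asic2 and Auts2. In Clstn2 the strongest promoter peak of replicate 2 (1.92) was likewise left out of the peak counts, but the shared region that holds it was counted. With each body divided into 4 equal parts from the 5′ end, the parts held 38, 44, 43 and 69 of the 194 regions. Of their 539 and 476 footprints 151 overlapped, and the strongest distal region of Ptprn2 had 0 that did.

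Long genes were set beside them: 163 protein-coding genes were at least as long as Clstn2, the shortest of the 10. The median density of shared regions was 1.92 per 100 kb in the 10 genes and 1.04 in the 163, which include the 10. Many distal peaks were part of what chose the genes, so the higher density describes the choice. Auts2 ranked 5 of 163 with 3.07 shared regions per 100 kb, Dlgap2 11 with 2.66, Kalrn 14 with 2.48, Ptprn2 25 and Asic2 26 with 2.02 each, Anks1b 35 with 1.82, Opcml 49 with 1.59 and Clstn2 51 with 1.53. Csmd1, at 1.10 and rank 73, and Lsamp, at 1.00 and rank 88, were close to the median of long genes. At least 1 shared distal region lay in 10 of 10, against 29.1% of all protein-coding genes and 95.7% of the 163, so that this count matches the background of long genes. A shared promoter peak is likewise common: 10 of 10 had a promoter peak in both libraries, against 63.2% of all and 95.1% of long genes.

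**Figure D2:**
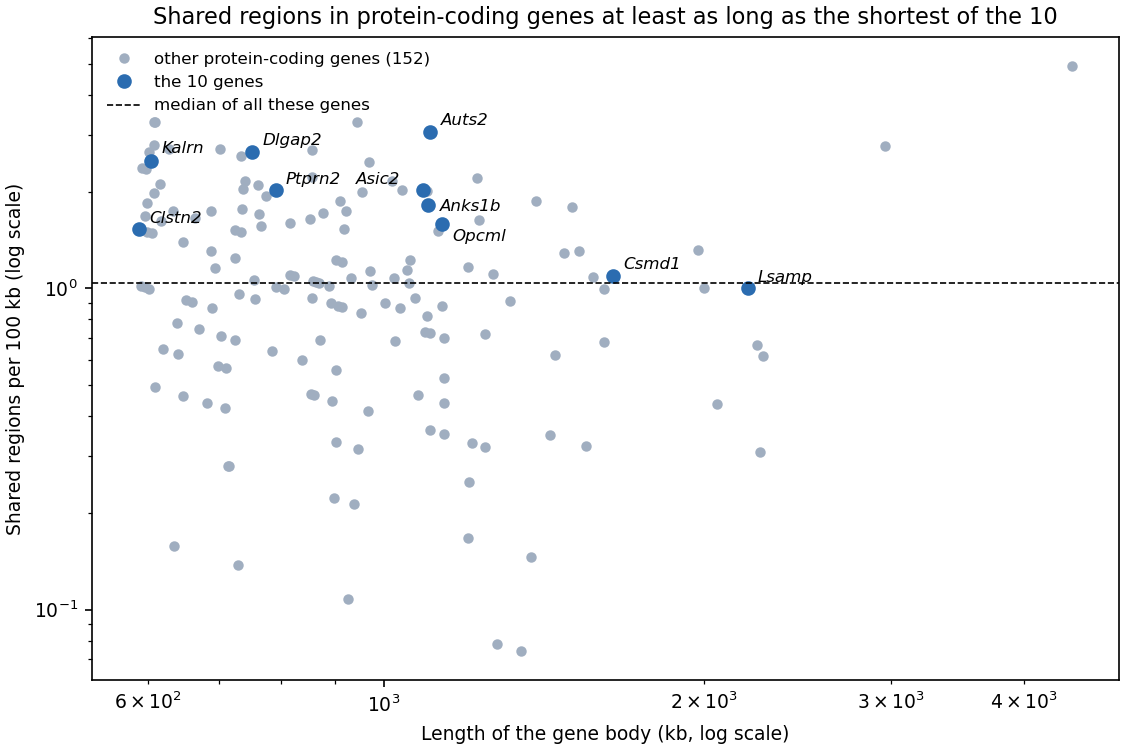
Shared regions per 100 kb against gene length, both on log scales, for the 10 genes (blue) and 152 other protein-coding genes of at least the same length (grey); 1 gene with no shared region could not be drawn. Csmd1 and Lsamp sit near the dashed median of 1.04, and Auts2 at 3.07 is the highest of the 10.

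Weak runs were found in fewer of the long genes than shared distal regions were, and in a larger share of long genes than of all genes. Peaks of a weak run of replicate 1 lay in 7 of the 10 genes, against 2.72% of all protein-coding genes and 12.9% of the 163. Runs of the library labelled male replicate 2 lay in 5 of the 10, against 0.781% and 7.36%, and runs of either library in 9, against 3.38% and 16.6%. Clstn2, Anks1b and Ptprn2 had runs of both libraries, against 0.12% and 3.68%, and Opcml had runs of neither. The unequal counts chose these genes, so nothing is read from the excess. Of the run peaks in the 163 genes, the 10 held 233 of 460 in replicate 1 and 151 of 225 in replicate 2. Kalrn, Clstn2 and Anks1b held the most in replicate 1, in that order, and Dlgap2 and Anks1b the most in replicate 2, followed by Clstn2 and Tenm2, which is not among the 10, with 20 each.

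The runs were called in a single library almost down to single bases. Run peaks overlap no peak of the other library by definition, so part of this is built in. A base that a library did not list is not shown to be closed. In replicate 1 the 18 runs spanned 141.6 kb, of which 84.7 kb consisted of bases that the authors listed with a false discovery rate (FDR) of cutting under 0.05 in that library, and the other library listed 0 bases there. In the library labelled male replicate 2 the 13 runs spanned 81.0 kb with 48.1 kb listed, and replicate 1 listed 0.13 kb. Runs held 249 and 89 footprints of their own library and 0 of the other. By contrast, 26 of 221 lone peaks of replicate 1 (11.8%) and 26 of 135 of replicate 2 (19.3%) held a base that the other library listed as well.

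Run peaks of the 10 genes combined the lowest median values with a strict FDR. Their median value of 0.233 in replicate 1 and 0.155 in replicate 2 was below that of lone peaks (0.488 and 0.432) and of shared peaks (0.848 and 0.686). Their median widths of 240 and 217 bp were nevertheless close to those of shared peaks (280 and 228 bp) and wider than lone peaks (133 and 100 bp). The stricter list held 74.7% and 75.5% of run peaks, 21.3% and 14.8% of lone peaks and 53.9% and 45.5% of shared peaks. Footprints were sparser in run peaks, at 3.76 and 2.27 per kb, than in lone peaks, at 6.14 and 5.999, or shared peaks, at 7.56 and 7.36. Run peaks of the whole lists also had low median values, 0.247 and 0.180. The stricter lists held 63.5% and 69.5% of them, against 67.3% and 64.5% of all shared peaks, so that in replicate 1 the order of run and shared peaks was the reverse of that in the 10 genes.

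**Figure D3:**
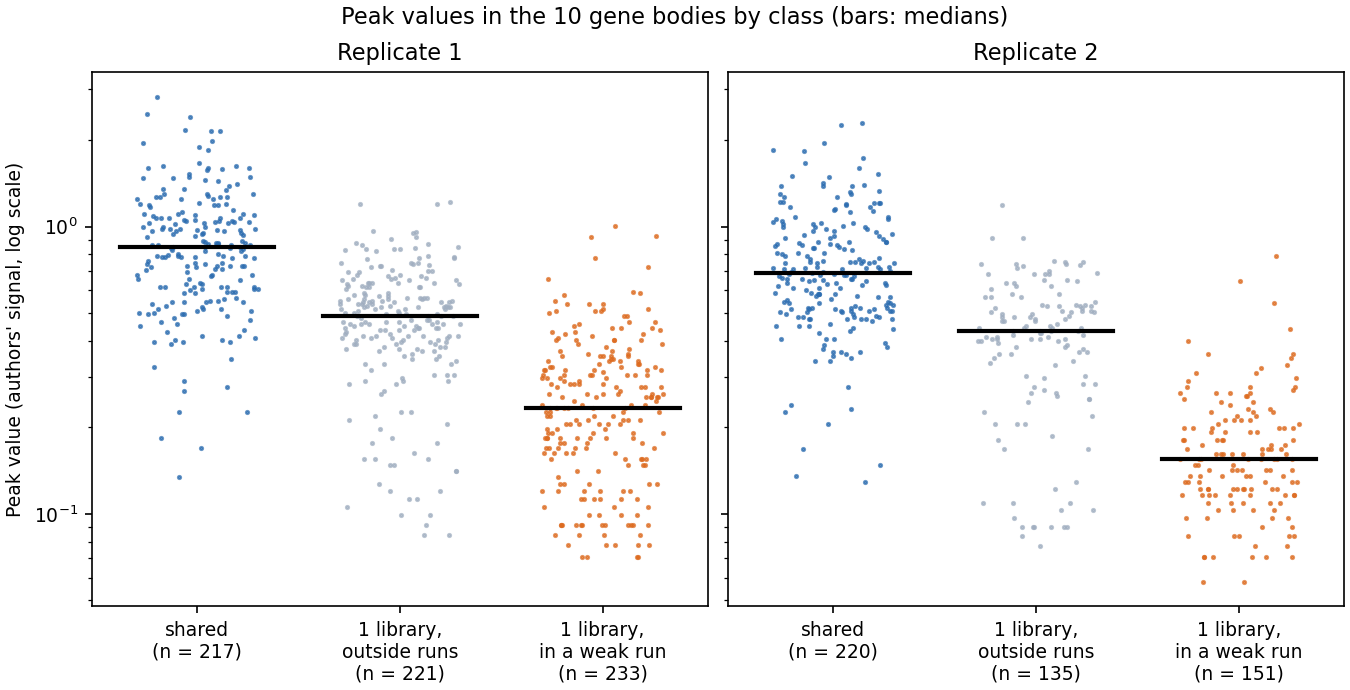
Peak values (authors' signal, log scale) in the 10 gene bodies by class and library; each point is a peak and bars are medians. Run peaks have medians of 0.233 and 0.155, below lone and shared peaks, and the ranges of the classes overlap.

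With run peaks left out, 438 and 355 peaks remained and the libraries came closer in 7 of the 10 genes. Run peaks belong to a single library by definition. Where 1 library alone had runs, leaving them out could lower its count only, so this narrowing is partly built in. The ratio of replicate 1 to the library labelled male replicate 2 went from 3.71 to 1.26 in Kalrn, from 3.26 to 2.64 in Clstn2 and from 0.549 to 1.47 in Dlgap2, where the direction turned. They moved further apart in Anks1b (0.919 to 0.878) and Ptprn2 (1.07 to 1.30). Over the 10 genes it went from 1.33 to 1.23, and over the whole lists from 1.18 to 1.12. The median density outside runs was 4.94 and 3.75 peaks per 100 kb in the 10 genes, against 2.24 and 1.78 in the 163 long genes. Densities above those medians were found for 10 of the 10 genes in replicate 1 and for 9 in replicate 2, where Lsamp, at 1.59, was below. The 10 genes were chosen for many or unequal distal peaks, so these densities describe the choice.

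**Figure D4:**
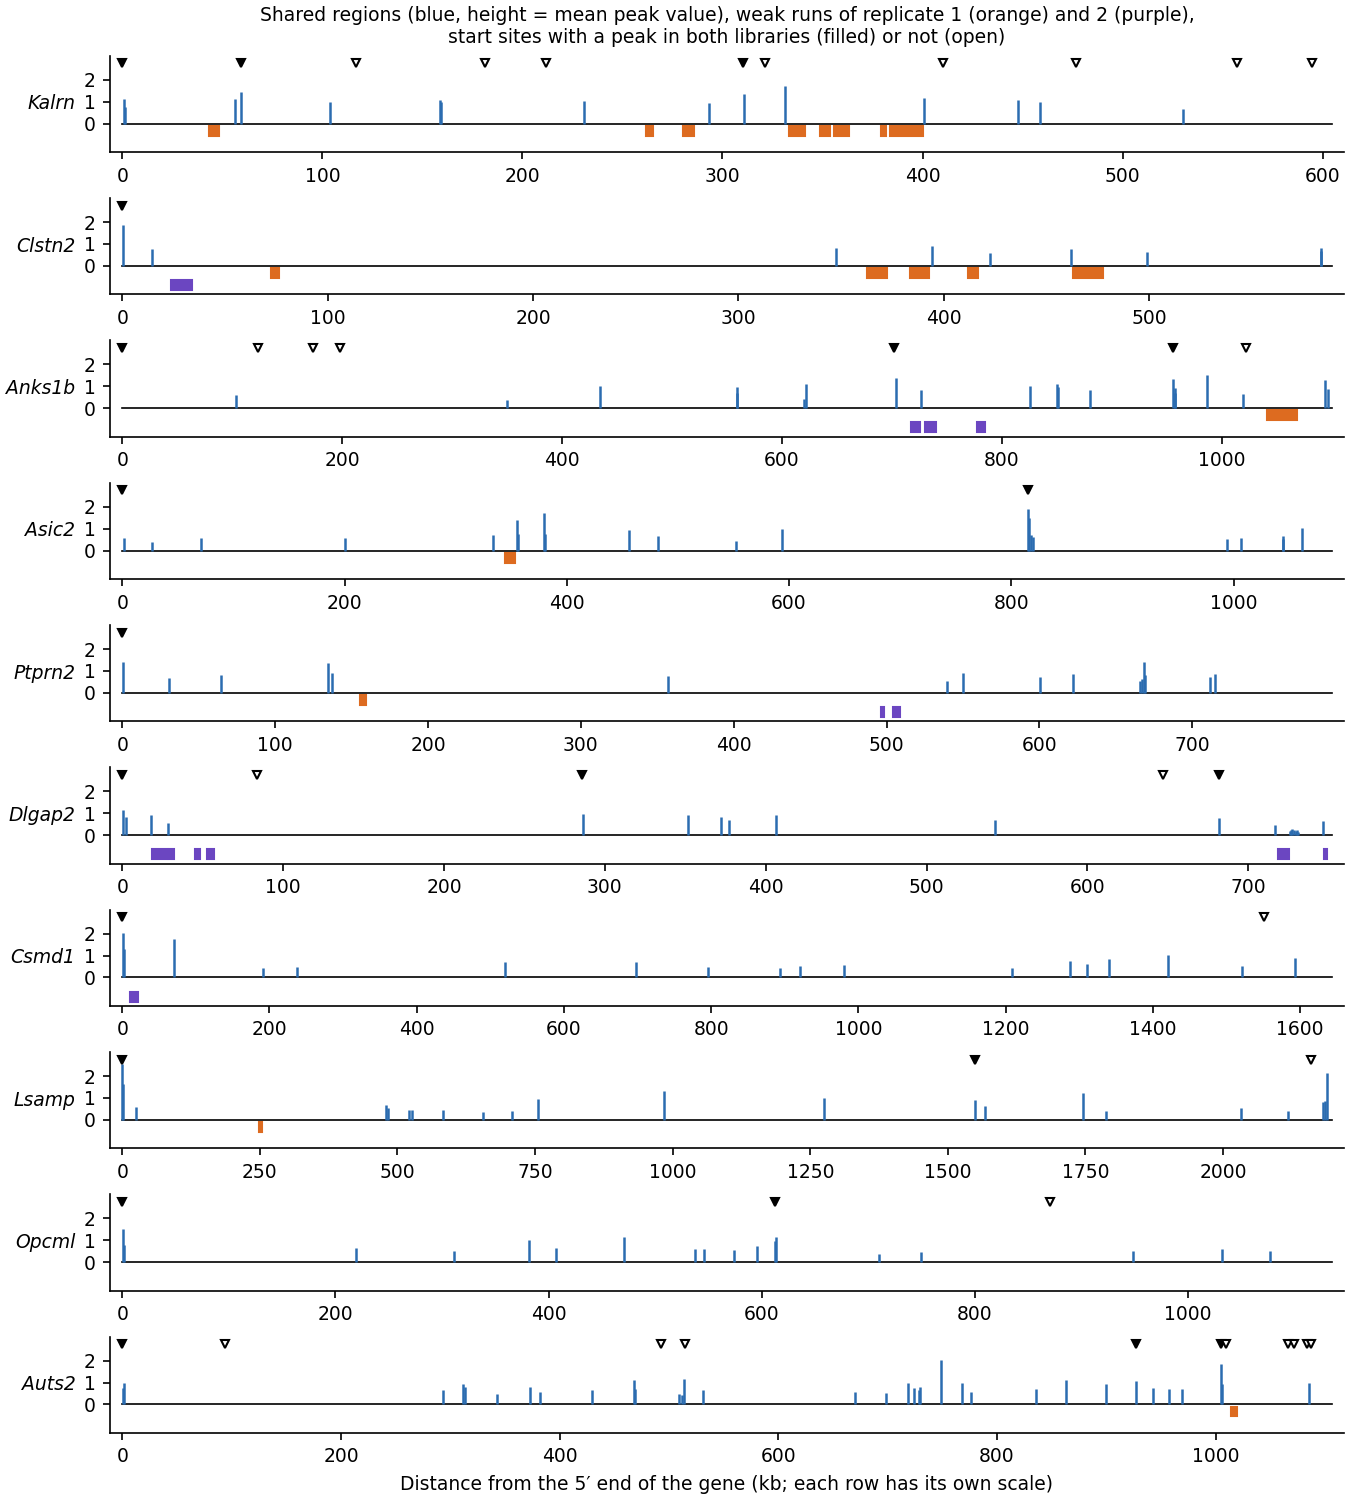
Each gene from its 5′ end (0 kb) to its 3′ end, each row to its own scale, with shared regions as blue lines whose height is the mean peak value of both libraries, weak runs of replicate 1 (orange) and replicate 2 (purple) below the line, and start sites with a peak in both libraries (filled triangles) or not (open). The runs of one library do not overlap those of the other, and Opcml has none.

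Among the genes of the postsynaptic side, Kalrn codes for kalirin, a protein that shapes dendritic spines. It lies on the minus strand of chromosome 16 (chr16:33969073-34573532, 604 kb). In replicate 1 it held 126 peaks, against 34 of the library labelled male replicate 2 (80.0 ± 65.1, SD, n = 2), the widest gap of the 10. The difference lay mostly in 83 peaks of 8 runs in replicate 1, which spanned 52.4 kb, while 16 and 15 peaks were shared. The longest of these runs, 27 peaks over 16.0 kb, covered introns 26 to 32 at 384 to 400 kb from the 5′ end and held 32 footprints. Bases with an FDR under 0.05 made up 7.89% of the body in replicate 1 and 1.22% in the other library, and 2.70% in replicate 1 outside the runs. Footprints numbered 213 and 60, of which 181 and 56 lay in peaks.

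Kalrn has many annotated starts, which fell into 11 windows that reach 1 kb to each side and were joined where they overlapped. The 5′-most window had peak values of 2.27 and 2.71, and inner windows at 59.4 kb and 310 kb had 1.67 and 1.21, and 1.53 and 1.14. Windows at 410 kb and 476 kb had peaks of 0.961 and 0.777 in replicate 1, whereas the other library had neither a peak nor a listed base there. The remaining 6 windows had no peak in either. The strongest shared distal region, printed above, lay in intron 14, 1.76 kb from a run of 14 peaks of replicate 1. Another shared region, 56.2 kb from the 5′ end, was over 2-fold higher in replicate 1 (1.49 against 0.722). No stretch of over 74.5 kb in Kalrn was free of shared regions, the shortest such gap of the 10.

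Anks1b codes for AIDA-1, a scaffold protein of the postsynaptic density. Its body spans 1100 kb of the plus strand of chromosome 10 (chr10:89873509-90973300). Its 79 and 86 peaks (82.5 ± 4.95, SD, n = 2) differed little in number, but 43 and 45 of them lay in runs at different places. The run of replicate 1 was the longest of the 832 runs of that library, with 43 peaks over 26.7 kb at 1041 to 1068 kb, in introns 19 to 23, and it held 49 footprints. The library labelled male replicate 2 had 3 runs of 15 peaks each between 717 and 784 kb, in introns 15 and 16. The 22 shared peaks of each library made 20 regions, of which 11 lay in the 3′-most of 4 equal parts of the body and 1 in the 5′-most. The strongest peak at the 5′ promoter is not among them, since its middle lay before the gene.

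Of 7 windows of start sites in Anks1b, 3 had peaks in both libraries, at the 5′ end (1.89 and 1.83), at 702 kb (1.49 and 1.27) and at 956 kb (1.41 and 1.27). A peak of 0.342 at 123 kb was found in replicate 2 alone. The strongest single-library peaks, 1.22 in replicate 1 and 1.19 in replicate 2, both lay in intron 17, at 831 and 817 kb, outside runs, with no base listed in the other library. That of replicate 1 (chr10:90704748-90705026) was nevertheless next to a lone peak of replicate 2 (chr10:90704611-90704740, 0.683), which ended just before it. The overlap rule alone kept these neighbours from being called shared.

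Dlgap2 codes for a scaffold that binds PSD-95 at excitatory synapses. The gene covers 752 kb of the plus strand of chromosome 8 (chr8:14095865-14847680). Here the library labelled male replicate 2 had more peaks, 91 against 50 (70.5 ± 29.0, SD, n = 2), 57 of them in 6 runs, while replicate 1 had no run. Of these runs 4 lay in intron 1, between 18.6 and 56.9 kb, and the longest held 16 peaks over 9.32 kb. Bases with an FDR under 0.05 made up 2.19% of the body in replicate 1 and 3.91% in the other library, and 1.45% in the latter outside the runs. The 5′-most window had values of 1.28 and 0.980, the lowest 5′ promoter of the 10 after Asic2, and inner windows at 286 kb and 682 kb had 1.03 and 0.864, and 0.862 and 0.748.

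The shared regions of Dlgap2 included a row that resembled a run but was called in both libraries. From 725.6 to 731.2 kb (chr8:14821501-14827040), beside a run of 15 peaks in the library labelled male replicate 2, 7 neighbouring shared regions had values of 0.134 to 0.396 in replicate 1 and 0.129 to 0.277 in replicate 2. Their median mean value was 0.229, rank 15 from the lowest among 308 rows of shared regions with the same spacing in the whole lists, whose median was 0.872. This row was singled out after its values were seen. Without it Dlgap2 had 13 shared regions, 1.73 per 100 kb, which would place it 40 instead of 11 among the 163.

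Among the adhesion genes, Clstn2 codes for calsyntenin 2, a cadherin-like protein of the postsynaptic membrane. On the minus strand of chromosome 9 (chr9:97444395-98033181, 589 kb), it held 101 and 31 peaks (66.0 ± 49.5, SD, n = 2), and 10 of each library were shared, in 9 regions, the fewest of the 10. Replicate 1 had 72 peaks in 5 runs and the library labelled male replicate 2 had 20 peaks in a run of 9.94 kb in intron 1. The longest run of replicate 1 held 26 peaks over 14.7 kb in intron 5. Lone peaks numbered 19 in replicate 1 and 1 in the other library. Its promoter had nearly equal values of 1.85 and 1.92, and 333 kb from 14.3 kb onward held no shared region. Runs held 77.4% of the FDR-listed bases of replicate 1 and 63.3% of those of replicate 2. The strongest shared distal region, in intron 2 (chr9:97638781-97639300), had 0.982 and 0.832, the lowest mean of the strongest regions of the 10, although that of Dlgap2 was lower in replicate 2 (0.774). Another Clstn2 region, in intron 17, was higher in replicate 1 alone (1.04 and 0.587).

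Lsamp and Opcml code for related adhesion proteins of the IgLON family, anchored to the neuronal surface by a lipid. Lsamp, on the plus strand of chromosome 16 (chr16:39984361-42181679, 2197 kb), is the longest of the 10 and had 55 and 35 peaks, of which 23 and 24 were shared. Its 22 shared regions gave the lowest density of the 10, and 455 kb from 24.7 kb onward held none. Its 5′ promoter, at 2.83 and 2.26, had the highest value of replicate 1 among the 5′ windows, and an inner window at 1548 kb had 0.968 and 0.870. A run of 5 peaks in replicate 1 had a median value of 0.537, the highest of the 31 runs. The strongest shared distal region, printed above, lay in intron 8, and 2 other regions, in introns 2 and 8, were over 2-fold higher in the library labelled male replicate 2 (1.39 against 0.629, and 1.06 against 0.523).

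Opcml, on the plus strand of chromosome 9 (chr9:27790775-28925410, 1135 kb), had 30 peaks in each library, of which 18 and 20 were shared and 0 lay in runs. It is the gene on which the libraries were most alike in number, and 0.745% and 0.604% of its bases had an FDR under 0.05. The 5′ window had values of 1.60 and 1.39, and an inner window at 612 kb had 1.07 and 1.21. The strongest shared distal region lay in intron 1 (chr9:28261481-28261853) at 1.11 and 1.22. A region in intron 4 was over 2-fold higher in the library labelled male replicate 2, at 0.806 against 0.396. Their relative Ntm, 968 kb long, had 57 and 34 peaks and 24 shared regions, 2.48 per 100 kb. Of the Ntm peaks of replicate 1, 9 lay in runs. Negr1 had 22 and 15 peaks and 8 shared regions, 1.06 per 100 kb.

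Asic2 codes for a proton-gated sodium channel subunit. It lies on the minus strand of chromosome 11 (chr11:80880169-81968457, 1088 kb) and has 2 start sites 815 kb apart, which give different first exons. The outer one had values of 0.996 and 0.838 and the inner one 2.17 and 1.67, so that in both libraries the inner promoter was the stronger. The 250 bases before the RefSeq starts at 81968396 and 81152903, from the RefSeq promoter table for GRCm38.p6, are shown 5′ to 3′ on the minus strand with CG in capitals (outer, chr11:81968397-81968646; inner, chr11:81152904-81153153). Both RefSeq starts lie downstream of the GENCODE starts given above, so that the outer sequence spans its GENCODE start and the inner one lies past it, inside the same window of start sites.
Asic2 outer promoter: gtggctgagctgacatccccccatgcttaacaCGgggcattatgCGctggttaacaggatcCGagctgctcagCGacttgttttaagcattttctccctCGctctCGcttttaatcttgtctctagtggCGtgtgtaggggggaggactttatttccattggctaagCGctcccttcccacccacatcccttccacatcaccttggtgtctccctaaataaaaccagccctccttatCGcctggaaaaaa
Asic2 inner promoter: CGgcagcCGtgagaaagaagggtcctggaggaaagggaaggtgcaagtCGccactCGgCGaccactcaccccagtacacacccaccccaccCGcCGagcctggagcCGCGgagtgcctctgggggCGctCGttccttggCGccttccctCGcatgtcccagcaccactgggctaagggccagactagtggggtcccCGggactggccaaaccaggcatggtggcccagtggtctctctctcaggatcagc
The outer sequence holds 9 CG and the inner one 14, against a median of 6 over 32851 promoters of the same length.

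Asic2 held 72 and 41 peaks (56.5 ± 21.9, SD, n = 2), of which 25 and 24 were shared in 22 regions. The 18 peaks of its single run, in intron 1 of replicate 1 over 8.66 kb, had a median value of 0.117, the lowest of that library's runs in the 10 genes. This run lay 1.76 kb from a shared region. The strongest shared distal region, printed above, lay in the same intron 380 kb from the 5′ end. Of 2 regions that differed over 2-fold, the one at 818 kb was higher in replicate 1 (0.982 against 0.477) and the one at 593 kb higher in the library labelled male replicate 2 (1.32 against 0.615).

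Ptprn2 codes for phogrin, a membrane protein of dense-core vesicles related to tyrosine phosphatases. Its position is the plus strand of chromosome 12 (chr12:116485720-117276849, 791 kb). Its 58 and 54 peaks (56.0 ± 2.83, SD, n = 2) included 17 and 18 shared ones and more lone peaks of replicate 1, 35, than any other of the 10. Runs were short, 6 peaks in replicate 1 and 5 and 9 in the library labelled male replicate 2, at different places. Around the latter, from 492 to 590 kb, the lone peaks of that library also had low values, 0.077 to 0.264. They missed the limits of a run and were counted outside runs. The promoter had 1.48 and 1.38, and the strongest shared distal region, in intron 12 (chr12:117153781-117154440), 1.63 and 1.17. Footprints numbered 105 in replicate 1 and 44 in replicate 2, of which 92 and 37 lay in peaks.

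Csmd1 codes for a large membrane protein with CUB and sushi domains that restrains complement. It lies on the minus strand of chromosome 8 (chr8:15892537-17535586, 1643 kb). Its 37 and 50 peaks (43.5 ± 9.19, SD, n = 2) included 23 shared ones in each library. The excess of the library labelled male replicate 2 was matched by a run of 15 peaks over 10.9 kb in intron 1, without which 37 and 35 remained. The promoter had 2.46 in replicate 1 and 1.60 in the other library. The strongest shared distal region lay in intron 1, 70.0 kb from the 5′ end, at 1.99 and 1.50. The relatives differed in density: Csmd2 had 17 shared regions, 2.93 per 100 kb, and Csmd3 had 4, 0.330 per 100 kb.

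Auts2 codes for a nuclear protein that associates with Polycomb complexes. It lies on the minus strand of chromosome 5 (chr5:131437333-132543344, 1106 kb) and had the most shared regions of the 10, 34, with 63 and 54 peaks (58.5 ± 6.36, SD, n = 2), of which 38 and 39 were shared. A single run of 6 peaks in replicate 1 lay in intron 6. Of its 11 windows of start sites, the 5′-most had values of 1.81 and 2.33, a window at 927 kb 1.25 and 0.902, and a window at 1005 kb 2.40 and 1.33. In replicate 1 the inner promoter was the higher and in replicate 2 the outer one. Its strongest shared distal region (chr5:131794461-131795140), in intron 4, had 2.14 and 1.95 with 8 and 9 footprints. The first 292 kb past the promoter held no shared region.

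Over the 10 genes, 46 windows of start sites were annotated. Peaks of both libraries lay in 21, of replicate 1 alone in 2 of Kalrn, of replicate 2 alone in 1 of Anks1b and 1 of Auts2, and 21 had none. The 5′-most window was open in both libraries in 10 of 10. Where a gene had several open windows, the 5′-most was the highest in both libraries in Kalrn, Anks1b, Dlgap2, Lsamp and Opcml, whereas the inner one led in Asic2.

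**Figure D5:**
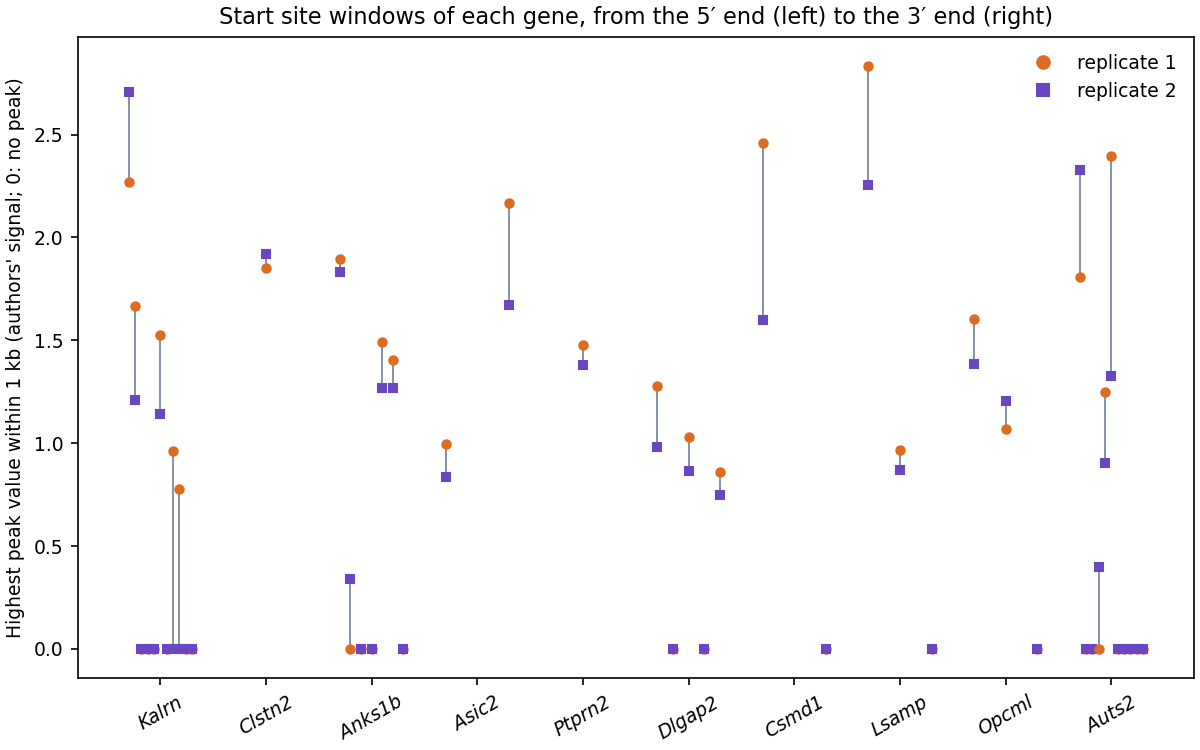
Highest peak value within 1 kb of each window of start sites, ordered from the 5′ end within each gene; circles are replicate 1, squares replicate 2, lines join the libraries, and 0 means no peak. The inner window of Asic2 reaches 2.17 and 1.67, above 0.996 and 0.838 at its outer one, and 2 windows of Kalrn have a peak in replicate 1 alone.

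The strongest peak without a partner in each gene ranged from 0.558 in Csmd1 to 1.22 in Anks1b in replicate 1 and from 0.445 in Clstn2 to 1.19 in Anks1b in replicate 2. That of Lsamp in replicate 1 (0.777) lay in a weak run, and the others lay outside runs. Most of these peaks held no base that the other library listed. The exceptions were Kalrn in replicate 1 (1.19, 9.57% of bases), Dlgap2 in both (0.919 with 3.70% and 0.651 with 20.7%) and Auts2 in both (0.735 with 23.9% and 0.728 with 100%). The Auts2 peak of replicate 2 lay beside the strongest shared region of that gene.

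Relatives of the 10 were described from a list of 18. Trio, the close relative of Kalrn, had 23 and 13 peaks, 5 of them in a run of replicate 1, and 7 shared regions, 2.37 per 100 kb against 2.48 in Kalrn. Dlgap1, 852 kb long, had 43 and 29 peaks, 20 of them in runs of replicate 1 and 0 in runs of replicate 2, and 14 shared regions, 1.64 per 100 kb. The Anks1b relative Anks1 had 3 shared regions, Clstn1 4, Clstn3 1 and Ptprn 4. Asic1 and Asic4 had 3 each and Asic3 had 1, and Asic1 also held 4 run peaks of replicate 1. Dlgap4 had 10, or 6.64 per 100 kb, and Dlgap3 had 4. Iglon5 and Fbrs had 1 each, and Fbrsl1 had 5 shared regions and 4 run peaks of replicate 2. Shared promoter peaks were present in 17 of the 18, the exception being Asic4, whose promoter peak (0.748) was in replicate 2 alone.

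Short sequence motifs were counted in 300-bp windows centred on the 166 shared distal regions, on both strands, beside all 31277 shared distal regions. The NeuroD E-box CAGATGG was in 37 windows (22.3%, exact 95% interval 16.2 to 29.4), against 16.2% of all. It was in 6 of 11 windows of Kalrn, 3 of 8 of Clstn2, 6 of 17 of Csmd1, 8 of 29 of Auts2 and 4 of 16 of Anks1b. In the other genes its share was below that of all regions. It was in 3 of 20 windows of Asic2, 2 of 14 of Opcml, 2 of 17 of Dlgap2, 2 of 19 of Lsamp and 1 of 15 of Ptprn2. The CTCF pattern was in 13 (7.83%, 4.24 to 13.0), against 16.3%, with 4 each in Lsamp and Opcml and 0 in Kalrn, Clstn2, Ptprn2, Dlgap2 and Auts2. The AP-1 pattern TGANTCA was in 11.4% against 10.3%, and the MEF2 pattern in 2.41% against 3.97%. CRE (TGACGTCA) and the NFI pattern had 0 windows, which allows up to 2.20%, against 0.528% and 0.118%, and EGR (GCGTGGGCG) had 1. Regions of a gene share its sequence composition and are not replicates, so these shares are descriptions.

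Base composition differed by class as well. Run peaks had a median GC content of 49.1% in replicate 1 and 47.5% in replicate 2, lone peaks 51.7% and 49.7%, and shared peaks 52.5% and 52.9%. The gene bodies themselves ranged from 37.8% in Lsamp to 45.5% in Kalrn. Peaks that lay mostly in repeats, as masked in the reference, were 8.15% and 11.9% of run peaks and 0.461% and 0.455% of shared ones. The part of composition or repeats in the runs was not tested.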

How the data were processed

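Both libraries were analysed from the deposited lists of peaks, a shorter and stricter list of peaks, footprints and FDR values per run of bases, made from each library separately in mm10, per the labels and the file headers. For the aligner, the callers and their filters: not given in the sources used here. Each peak's value is a signal that the authors deposited with no stated scaling, so values were set side by side as deposited and no model was fitted. FDR values were used as the authors deposited them, which is for bases under 0.05. The constant column of the footprint files was not used.

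GENCODE M21 gave the genes, and GRCm38.p6, the build of mm10, the sequence. A peak belonged to a gene by its middle base. Promoter peaks came within 1 kb of a start site of that gene. Start sites whose windows overlapped were counted as 1 window. Introns were numbered on the longest coding transcript, or in Auts2 on the longest transcript. Promoter sequences matched 7 of the 10 genes by symbol. Intervals are exact (Clopper-Pearson, 95%). Overlaps and runs were computed with numpy 2.4.6, scipy 1.17.1, pandas 2.3.3 and matplotlib 3.10.9 under Python 3.11.15, and the code was tested on simulated peaks.

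The 10 genes, the lists of 18 relatives, cell type markers and motifs were chosen with earlier results of these data known. The rule for named features took, for each gene, its promoter peaks, its strongest shared distal region, its strongest single-library peak in each library and its longest run, and all relatives were described. With 1 group and genes chosen from these values, no test was made. Alternatives were the stricter list, a reciprocal overlap of 50%, each library alone, bodies extended by 10 kb, other run limits, a window of 2.5 kb, and runs or other genes' start sites left out.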

Additional observations from a re-analysis of the deposited data

How the results depend on the processing

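Depth is unknown, and with 2 libraries of 1 group the spread rests on a single pair. A promoter peak in both libraries remained in 10 of 10 genes with the stricter list and with a window of 2.5 kb. The 194 shared regions became 66 with the stricter list and 118 with a reciprocal overlap of 50%. The 37.1% of peaks that were shared became 25.0%, 21.2% and, without run peaks, 55.1%. The median of 1.92 shared regions per 100 kb became 0.592 and 1.17, 1.97 with bodies extended by 10 kb and 1.86 without start sites of other genes. Footprints per kb of peak, 5.80, became 6.58 with the stricter list and 7.15 without run peaks. The median of long genes, 1.04, became 1.31 with genes of at least 300 kb. With a single library no sharing can be counted, so its own peaks stand in: leaving out each replicate gave 506 to 671 peaks, 5.07 to 6.63 peaks per 100 kb and 151 to 233 run peaks of the 384. The value without replicate 1 for run peaks was added after seeing the data. Run peaks stayed between 274 and 416 under the other settings. No paired analysis was possible because the data hold 1 group.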

Other observations

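Low peak value together with a place in the stricter list was mostly found in weak runs, in the 10 genes and in the whole lists. In the 10 genes, 156 peaks of replicate 1 and 160 of replicate 2 had a value under 0.25. The stricter list held 99 and 104 of them, and of these 80 and 90 lay in weak runs of Kalrn, Clstn2, Anks1b, Dlgap2 and the other genes with runs. In the whole lists, 3207 and 1754 such peaks were in the stricter list, and 2318 (72.3%) and 1096 (62.5%) of them lay in weak runs. The share of all peaks under 0.25 that lay in runs was not counted, so these counts have no such base beside them. Run peaks had low values in general, which by itself puts many low peaks in runs. The bound of 0.25 was chosen after the values were seen.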
